A study of Mus musculus with 12 samples.

Results

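The comparison sets Drosha-deficient CD4+ T cells against control CD4+ T cells of the mouse, with 1 small RNA library per genotype, 2 of the 12 libraries of the series. The members are all mature miRNA entries that either library lists: 278 in all, of which 85 were listed in the Drosha-deficient library (CD4_Drosha), 273 in the control library (CD4_control) and 80 in both. The Drosha-deficient cells were sorted by flow cytometry from spleen and lymph nodes of mice labelled Drosha CD4-cre, and the control cells from mice labelled CD4-cre. Both groups therefore carry the Cre transgene, were 6 to 7 weeks old and had been backcrossed to C57BL/6. CD4-cre uses regulatory sequences of the Cd4 gene and becomes active in the thymus, before the sorted cells form. The labels give neither the Drosha allele, nor the number of animals, nor the extent of the deletion, and these libraries hold no Drosha mRNA. The series title calls the CD4+ T cells activated, and the sample labels say nothing on activation. With 1 library per genotype no difference has a replicate check, and no test was run.

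Most miRNAs are cut from long primary transcripts in the nucleus by Drosha with its partner DGCR8. The released hairpin is exported and cut again by Dicer into the mature duplex. A few hairpins reach Dicer without Drosha: mirtrons are short introns that fold into a hairpin after splicing, and short hairpins such as those of miR-320 and miR-484 are made directly by transcription. Another kind of entry in miRNA lists of that period comes from fragments of other non-coding RNA, such as tRNA and rRNA, and several of these names were later withdrawn as miRNAs.

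The mature sequences below are shown because they carry the main contrasts: the Drosha-independent hairpins, the miRNAs lowest without Drosha, the miR-181 family, and fragment entries. They are from RefSeq (GRCm38.p6), 5′ to 3′, and capitals mark the seed (bases 2 to 8), the stretch that pairs with target mRNAs. Of the 90 entries that were compared as described further on, 71 matched an entry of that table.
miR-484: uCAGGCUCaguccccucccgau
miR-877-5p: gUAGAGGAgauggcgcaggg
miR-877-3p: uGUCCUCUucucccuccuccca
miR-702-5p: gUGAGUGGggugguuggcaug
miR-702-3p: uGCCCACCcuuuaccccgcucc
miR-296-3p: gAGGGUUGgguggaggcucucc
miR-298-5p: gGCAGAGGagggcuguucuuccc
miR-7a-5p: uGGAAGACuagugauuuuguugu
miR-423-5p: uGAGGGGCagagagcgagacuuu
miR-423-3p: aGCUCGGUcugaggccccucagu
miR-22-3p: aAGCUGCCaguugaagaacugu
miR-93-5p: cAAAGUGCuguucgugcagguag
miR-17-5p: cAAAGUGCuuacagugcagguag
miR-20a-5p: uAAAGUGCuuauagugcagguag
miR-181a-5p: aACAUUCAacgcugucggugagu
miR-181b-5p: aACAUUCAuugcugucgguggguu
miR-181c-5p: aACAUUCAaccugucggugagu
miR-181d-5p: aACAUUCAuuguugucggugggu
miR-1839-5p: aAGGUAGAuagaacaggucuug
miR-1983: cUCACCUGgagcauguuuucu
miR-690: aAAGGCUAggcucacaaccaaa
miR-1195: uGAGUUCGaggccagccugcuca

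On the same build the miR-877 hairpin, chr17:35960730-35960814 on the minus strand, has the ends of an annotated Abcf1 intron of 85 bases, so its 5p arm opens on the first base of that intron. The miR-702 hairpin, chr5:136991433-136991541 on the plus strand, reaches into a Plod3 exon, and its 5p arm opens on the first base, 136991442, of an intron that ends at 136991543. The miR-484 hairpin (chr16:14159626-14159692, plus strand) overlaps an exon of Marf1 on the opposite strand. The hairpins of miR-296 (chr2:174267047-174267125) and miR-298 (chr2:174267504-174267585) lie side by side on the minus strand outside other annotated genes, and that of miR-423 (chr11:77078064-77078172, minus strand) lies in an intron of Nsrp1 on the same strand.

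The deposited value of an entry is a normalised mapping count, a whole number on a scale of 1000000 per library. The values fall on steps that put 1 read at 132 in CD4_Drosha and at 10 in CD4_control, for implied totals of about 7600 and 100000 reads; the step of 10 could also come from rounding, and then the control reads are not known. The lowest listed value was 526 (4 reads) in CD4_Drosha and 20 (2 reads) in CD4_control. A miRNA missing from CD4_Drosha was therefore taken as below 526, not as 0. The listed values summed to 911314 in CD4_Drosha and to 1002350 in CD4_control, so 88686 of the 1000000 in CD4_Drosha lay outside its list. The CD4_control sum exceeds the scale of 1000000, so its implied total of about 100000 reads, and what rests on it, is approximate. Ranges given with a value are 95% exact intervals from these implied reads and cover counting error only.

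The libraries differed in makeup, with entries grouped by name into fragments, short hairpins, mirtrons and other miRNAs. In CD4_Drosha, fragments of other non-coding RNA took 51.6% of the listed values (50.4 to 52.8%), against 4.92% in CD4_control (4.78 to 5.05%). The short hairpins miR-320 and miR-484 took 25.1% in CD4_Drosha (24.1 to 26.1%) and 3.22% in CD4_control (3.11 to 3.33%). Mirtrons took 0.693% in CD4_Drosha (0.511 to 0.918%) and 0.0339% in CD4_control (0.0235 to 0.0474%). All other miRNAs, most of which need Drosha, took 22.6% in CD4_Drosha (21.6 to 23.6%) and 91.8% in CD4_control (91.66 to 92.002%). The 3 leading entries of CD4_Drosha, miR-689, miR-320 and miR-484, held 62.9% of its listed values and 6.28% of those of CD4_control. The 3 leading entries of CD4_control, miR-22, miR-423-5p and miR-93, held 8.68% in CD4_Drosha and 31.2% in CD4_control.

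**Figure D1:**
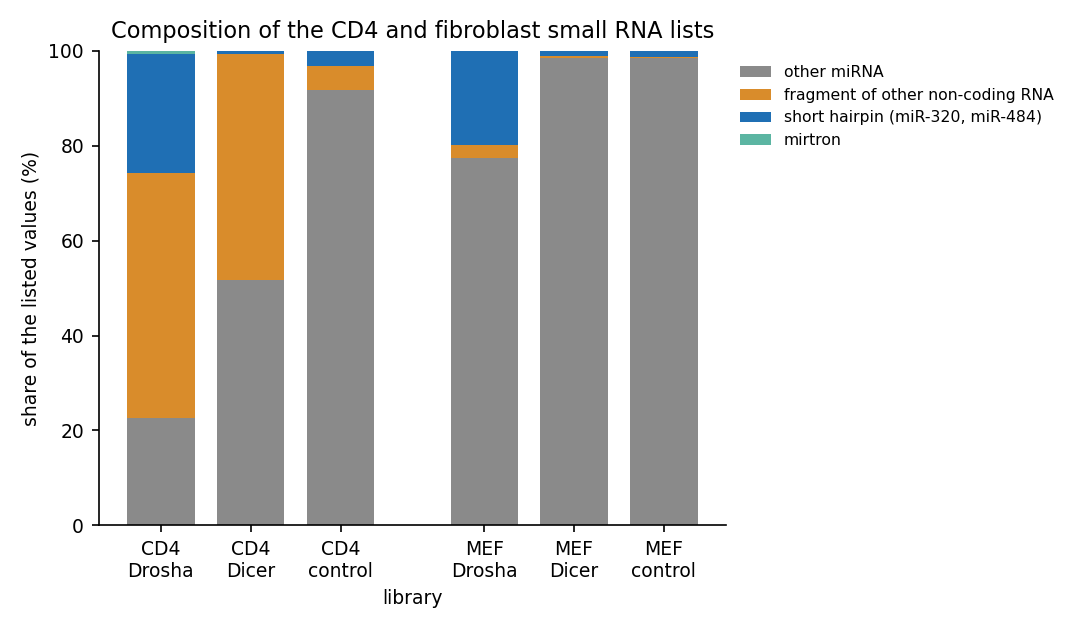
Share of the listed values (%) by kind of entry in the CD4 T cell and embryonic fibroblast (MEF) libraries, 1 library per bar. The other miRNAs fill 22.6% of CD4_Drosha and 91.8% of CD4_control, and the short hairpins are broad in both Drosha libraries.

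Among the short hairpins, miR-320 stood at 141711 in CD4_Drosha and 28580 in CD4_control, 4.96-fold higher without Drosha (4.62 to 5.32). miR-484 stood at 87105 in CD4_Drosha and 3670 in CD4_control, 23.7-fold higher (20.9 to 27.04). The gap between them narrowed: miR-320 was 1.63 times as abundant as miR-484 in CD4_Drosha (1.48 to 1.79) and 7.79 times in CD4_control (6.98 to 8.71), a ratio within each library that no scaling of the library can alter. miR-320 exceeded miR-22, the most abundant miRNA of CD4_control, by 2.27 times in CD4_Drosha, against a ratio of 0.187 in CD4_control.

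The mirtrons were rarer and were also higher in CD4_Drosha. miR-877*, from the intron in Abcf1, was listed at 4342 in CD4_Drosha (33 reads) and 250 in CD4_control (25 reads), a ratio of 17.4 (10.02 to 30.5). Its other arm, miR-877, was at the floor in both libraries, 526 in CD4_Drosha and 20 in CD4_control. miR-702, from the Plod3 intron, was listed at 921 in CD4_Drosha (7 reads) and 50 in CD4_control (5 reads), a ratio of 18.4 (5.03 to 73.6). miR-1982* was listed in CD4_Drosha, at 526, and not in CD4_control, which lists miR-1982.2 at 20. Each mirtron entry was below 526 in CD4_control, so it could be compared here only because it was higher in CD4_Drosha.

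In Dicer-deficient CD4+ T cells (CD4_Dicer, 1 library, compared with the same control), miR-320 stood at 4194, miR-484 at 1613, and no mirtron was listed above the floor of 645. Short hairpins took 0.650% of the CD4_Dicer list. They thus had their highest share in the Drosha-deficient library and their lowest in the Dicer-deficient library, with control in between.

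**Figure D2:**
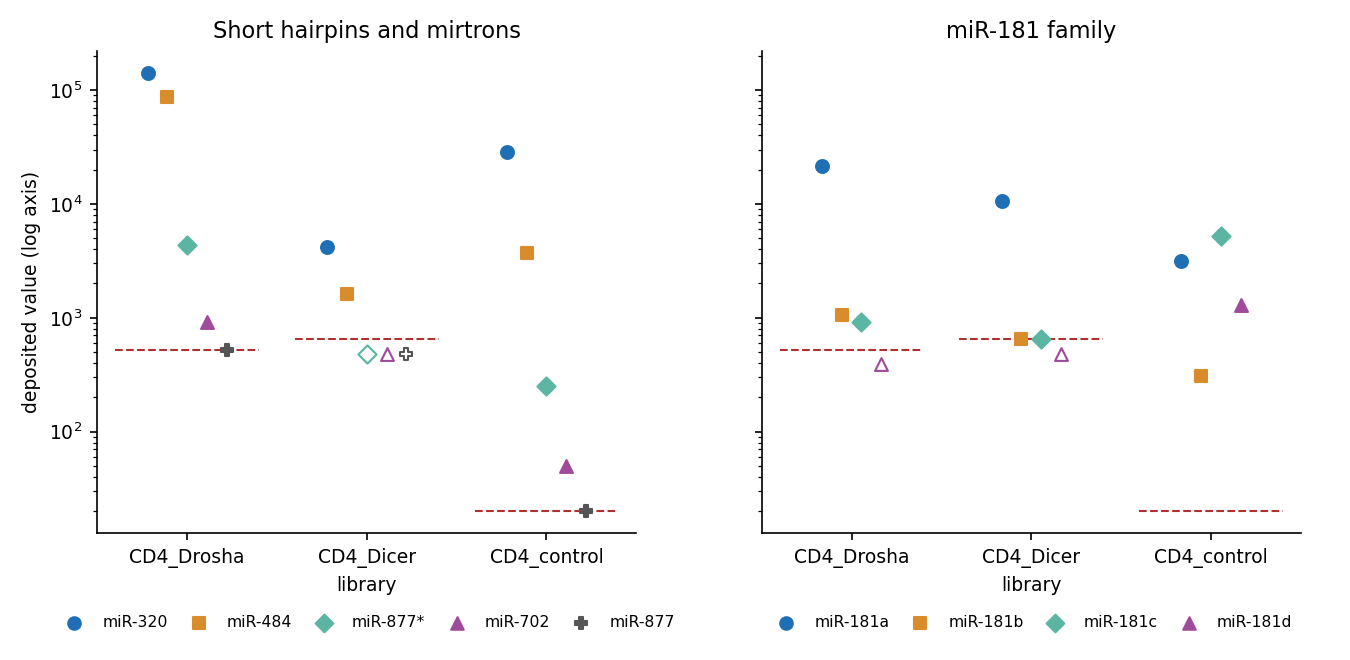
Deposited values (log axis) of the short hairpins and mirtrons (left) and of the miR-181 family (right) in the CD4 T cell libraries. Open symbols lie below a library's floor (dashed line) and mark entries it does not list; miR-320 and miR-484 are highest in CD4_Drosha and lowest in CD4_Dicer, and miR-181c lies above miR-181a in CD4_control alone.

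Fragments of other non-coding RNA were led by miR-689. It stood at 344342 in CD4_Drosha and 30690 in CD4_control, 11.2-fold higher without Drosha (10.6 to 11.8). The other fragments took 13.8% of the listed values in CD4_Drosha and 1.85% in CD4_control. With miR-689 left out of both libraries, the other miRNAs took 36.3% in CD4_Drosha and 94.7% in CD4_control. Of the 18 fragment entries listed in both libraries 17 were at least 2-fold higher in CD4_Drosha, beside 35.0% of all 80 entries listed in both. Nothing can be read from that count, since 12 of the 17 stood at 30 to 260 in CD4_control and had to be at least 2-fold higher to be listed in CD4_Drosha at all.

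Of the 6 fragments at 526 or more in control, 5 were at least 2-fold higher in CD4_Drosha and 1 was lower, beside 8.89% higher and 65.6% lower of all 90 entries at that control level. miR-1937a, a tRNA fragment, stood at 36974 in CD4_Drosha and 6740 in CD4_control, 5.49-fold higher (4.76 to 6.31). miR-709 stood at 23947 in CD4_Drosha and 1170 in CD4_control, 20.5-fold higher (16.1 to 26.0). miR-1944 and miR-714 were 7.80-fold (5.63 to 10.7) and 5.01-fold (3.52 to 7.04) higher in CD4_Drosha. Among entries below 526 in control, miR-1959 was listed at 11316 in CD4_Drosha and 190 in CD4_control, miR-1937b at 9605 and 40, and miR-1195 at 8158 and 120. miR-1983 was listed at 4605 in CD4_Drosha and 200 in CD4_control. miR-1839-5p, whose hairpin (chr7:81529916-81529988) is annotated as a scaRNA, was listed at 2368 in CD4_Drosha and 230 in CD4_control. The smaller ones, miR-677, miR-720, miR-715, miR-690, miR-712*, miR-712 and miR-1274a, ran from 658 to 2895 in CD4_Drosha and from 30 to 260 in CD4_control. miR-805 was the exception, at 2500 in CD4_Drosha and 6800 in CD4_control, 2.72-fold lower (1.73 to 4.55) by the library total and higher by both other scalings given further on. miR-685 was listed only in CD4_Drosha, at 526, and miR-1186, miR-1937c and miR-696 only in CD4_control, at 20 to 50.

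The share of fragments was also high in CD4_Dicer, which is set against the same control. It was 47.6% there, and miR-689 stood at 269194 and miR-1937a at 57258. CD4_control was 13.2 times as deep as CD4_Drosha by implied reads, and the part of depth in the fragment shares was not tested. In the fibroblasts the fragments took 2.78% in MEF_Drosha, 0.317% in MEF_Dicer and 0.320% in MEF_control.

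To compare the remaining miRNAs without a choice by their Drosha value, the entries at 526 or more in CD4_control were taken, 90 in all. Of these, 58 were listed in CD4_Drosha and 32 were not. At least 2-fold lower in CD4_Drosha were 59 of the 90 (65.6%), 41 of them by their listed values and 18 because the floor itself was at least 2-fold below control. At least 2-fold higher were 8 of the 90 (8.89%), 9 lay within 2-fold, and 14 not listed in CD4_Drosha could not be placed. The 82 entries that are neither fragments nor short hairpins gave 58 lower and 1 higher, with a median log2 ratio of -1.55 with unlisted entries at the floor, beside -1.42 over all 90.

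These counts rest on the library total, which fragments and short hairpins fill to a large part in CD4_Drosha. The median entry listed in both lay at -1.75 on the log2 scale and the total of the other miRNAs at -2.16. Measured against that median, 16 entries were at least 2-fold lower and 12 higher, and against that total, 12 lower and 17 higher. Both counts of higher entries take in some low in control. The floor of 526 lets such entries be listed in CD4_Drosha only if they are higher by these scalings, so nothing can be read from their direction. The 8 entries higher by the library total were at least 2-fold higher by all 3 scalings, and 11 listed miRNAs were at least 2-fold lower by all 3. The 11 were both arms of miR-423, the neighbours miR-296-3p and miR-298, miR-7a, miR-19b, miR-93, miR-130b, miR-185, miR-186 and miR-210. By the floor alone miR-21*, not listed in CD4_Drosha, was also at least 2-fold lower by all 3.

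**Figure D3:**
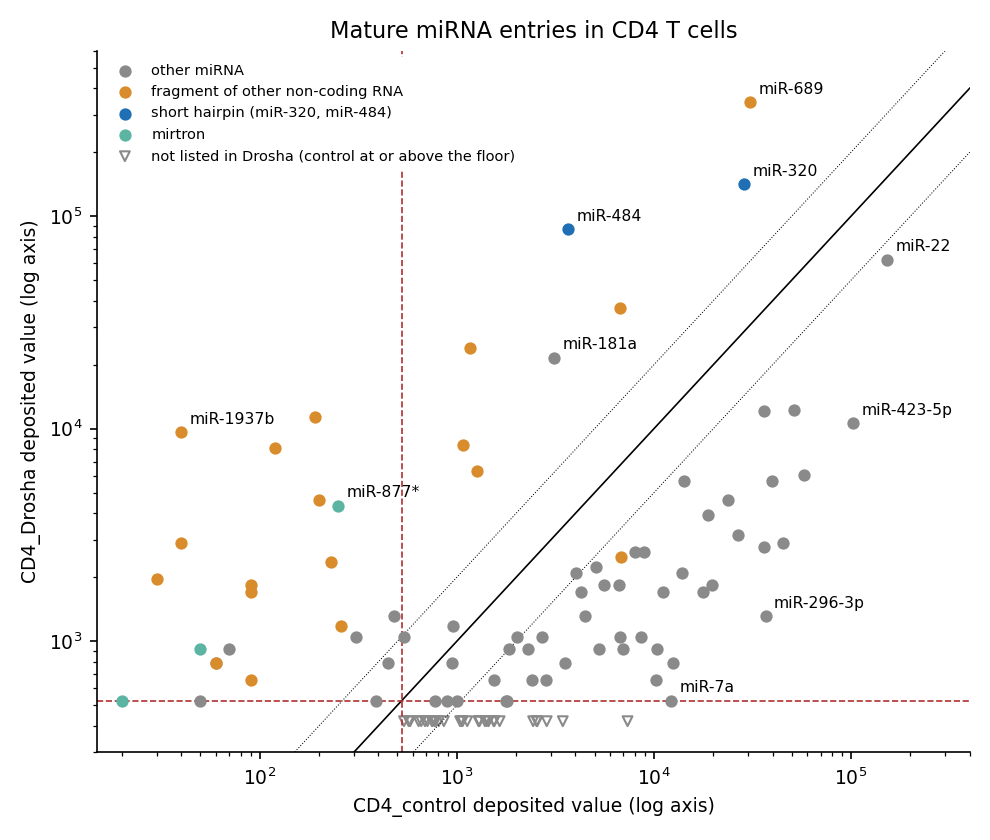
Deposited value of each entry in CD4_Drosha (vertical) against CD4_control (horizontal), both on log axes; the solid line marks equal values, dotted lines 2-fold, and dashed lines the CD4_Drosha floor of 526. Most other miRNAs at 526 or more in control lie below the line, and the 32 not listed in CD4_Drosha are drawn as triangles under the floor.

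The lowest ratio belonged to miR-296-3p, from the imprinted Gnas region, at 1316 in CD4_Drosha and 36840 in CD4_control, 28.0-fold lower (15.2 to 58.4). Its neighbour miR-298 stood at 789 in CD4_Drosha and 12560 in CD4_control, 15.9-fold lower (7.29 to 43.4). The ratio of miR-296-3p to miR-298 was 1.67 in CD4_Drosha (0.549 to 5.58) and 2.93 in CD4_control (2.75 to 3.13), and these intervals overlap. In the other cell types the libraries lay closer together. The regulatory T cells and DN3 thymocytes were, like the CD4+ T cells, from mice 6 to 7 weeks old. The fibroblasts were from embryos. miR-296-3p was 1886 in MEF_Drosha and 3927 in MEF_control, 128 in regulatory T cells without Drosha and 153 in their control, and 1186 in DN3 thymocytes without Drosha and 1030 in their control.

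miR-7a stood at 526 in CD4_Drosha, 4 reads, and 12260 in CD4_control, 23.3-fold lower (9.07 to 85.6). Both arms of miR-423 were among the lowest. miR-423-5p stood at 10658 in CD4_Drosha and 102210 in CD4_control, 9.59-fold lower (7.71 to 12.1), and miR-423-3p at 2895 in CD4_Drosha and 45400 in CD4_control, 15.7-fold lower (10.3 to 25.05). miR-210, known as a hypoxia-induced miRNA, stood at 2763 in CD4_Drosha and 36220 in CD4_control, 13.1-fold lower (8.56 to 21.2). In the fibroblasts miR-210 stood at 7119 in MEF_Drosha and 4051 in MEF_control. miR-185, miR-130b and miR-186 were 15.6-fold, 11.2-fold and 10.4-fold lower in CD4_Drosha, on 5, 7 and 13 reads there.

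**Figure D4:**
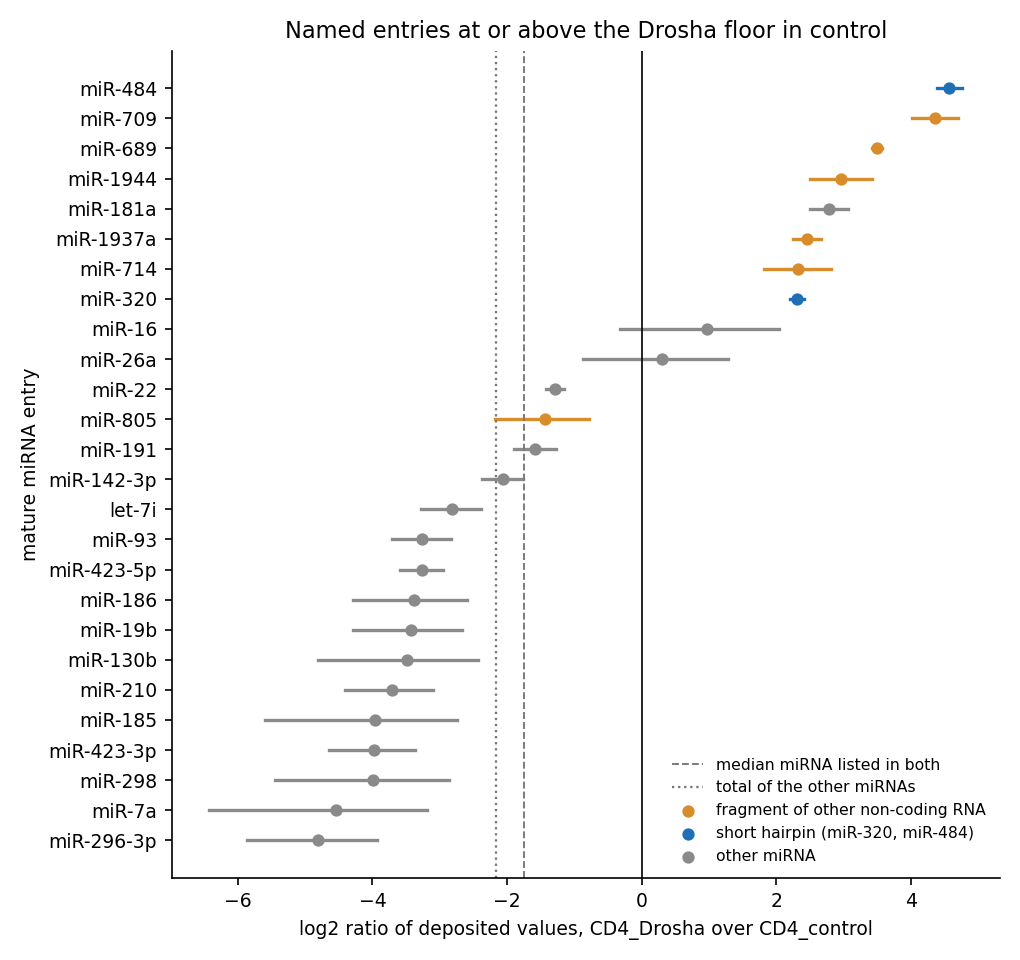
log2 ratio of deposited values, CD4_Drosha over CD4_control, for named entries at 526 or more in control and listed in both, with 95% exact intervals for counting error as bars. Dashed and dotted vertical lines mark the median miRNA (-1.75) and the total of the other miRNAs (-2.16). Entries from miR-296-3p up to let-7i lie left of both lines, and 8 entries lie right of 1.

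Of the 10 highest entries of CD4_control, miR-22, miR-191 and miR-142-3p were lower by smaller factors than the other miRNAs among them. miR-22 stood at 62368 in CD4_Drosha and 152800 in CD4_control, 2.45-fold lower (2.24 to 2.69). Among the other miRNAs alone its share was 30.3% in CD4_Drosha and 16.6% in CD4_control, so it was lower by the library total and higher by both other scalings. The same held for miR-191, 12105 in CD4_Drosha and 36150 in CD4_control. miR-142-3p, a miRNA of all blood cells, stood at 12237 in CD4_Drosha and 51110 in CD4_control, 4.18-fold lower (3.40 to 5.18), and 0.10 above the total of the other miRNAs on the log2 scale. let-7i stood at 5658 in CD4_Drosha and 39820 in CD4_control, 7.04-fold lower (5.22 to 9.74).

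Ratios also followed the control level, in part by construction. No listed entry stands under 526 in CD4_Drosha, so the lowest ratio it can show rises as its control value falls. An entry less than 2-fold above that floor in control could not be called lower at all. All 21 of the other miRNAs at 10000 or more in control were listed in CD4_Drosha and at least 2-fold lower, with a median log2 ratio of -3.26. Of the 24 between 2104 and 10000, 22 were lower, and of the 37 between 526 and 2104, 15 were lower and 14 could not be placed. The floor hides low ratios among the unlisted entries of both lower ranges, 6 of the 24 and 26 of the 37, so the lists cannot show how low those go. Of the 11 listed miRNAs lower by all 3 scalings, 10 matched a sequence, and these had a median GC content of 54.3%. That median was 47.8% for the remaining 60 other miRNAs of the set with a sequence. Of these 60, 27 were not listed in CD4_Drosha and so could not join the 11, whatever their level.

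The miR-17-92 cluster and its paralogs, a group tied to lymphocyte growth, gave 13 entries in the set. Of these, 10 were at least 2-fold lower in CD4_Drosha, 6 of them by the floor alone, and none was higher, a share near the 65.6% of all 90 entries; their median log2 ratio was -1.76, beside -1.42 over all 90. miR-93 stood at 6053 in CD4_Drosha and 57880 in CD4_control, 9.56-fold lower (7.16 to 13.1), and miR-19b at 1842 in CD4_Drosha and 19730 in CD4_control, 10.7-fold lower (6.37 to 19.6). miR-20a, miR-19a and miR-17, at 3450, 2860 and 2560 in CD4_control, were not listed in CD4_Drosha and so were at least 6.56-fold, 5.44-fold and 4.87-fold lower. Counted by sign alone, all 4 members listed in both libraries lay lower against the median entry and 3 against the total of the other miRNAs. Only miR-93 and miR-19b were at least 2-fold lower by all 3 scalings, and miR-17* and miR-92a lay within 2-fold under both others. The 4 entries of the set that share the seed AAAGUGC are miR-93, miR-17, miR-20a and miR-106a. All are among the 10 lower by the library total, the last 3 by the floor alone.

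Of the 7 let-7 members in the set 5 were at least 2-fold lower by the library total, near the 65.6% of all 90, and 2, let-7a and let-7d, were within 2-fold. Counted by sign alone, all 7 let-7 members lay lower by the library total, 2 lower and 5 higher against the median entry, and 1 lower and 6 higher against the total of the other miRNAs. let-7a stood at 2105 in CD4_Drosha and 4020 in CD4_control, 1.91-fold lower (1.16 to 3.37). miR-103 was 6.49-fold lower in CD4_Drosha (3.78 to 12.2) and its relative miR-107 1.69-fold lower, an interval (0.638 to 6.34) that includes no difference, and under both other scalings miR-107 lay above 1. miR-15a and miR-16, which share a seed, were within 2-fold, at 526 and 1053 in CD4_Drosha and 780 and 540 in CD4_control. Both were over 2-fold higher under the other scalings, miR-15a at 1.19 and 1.59 and miR-16 at 2.72 and 3.12 on the log2 scale against the median entry and the total of the other miRNAs. The floor of 526 fixed these directions. At their control values miR-15a, miR-16 and miR-107 could be listed in CD4_Drosha only if they came out higher by those scalings. miR-15a rests on 4 reads in CD4_Drosha, at the floor. Its interval, 0.556 to 5.57-fold lower by the library total, includes no difference under all 3 scalings. Both miR-29 entries of the set, miR-29a* and miR-29b, were not listed in CD4_Drosha.

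miR-181a was the only one of the 82 other miRNAs at least 2-fold higher in CD4_Drosha by the library total. Under the other scalings further ones were, among them miR-16 and miR-26a. Both stood so low in control that the floor of 526 let them be listed in CD4_Drosha only if higher by those scalings. miR-181a stood at 21579 in CD4_Drosha and 3130 in CD4_control, 6.89-fold higher (5.67 to 8.35), and made up 10.5% of the other miRNAs in CD4_Drosha and 0.340% in CD4_control. Its relatives with the same seed were compared in the same way. miR-181c stood at 921 in CD4_Drosha and 5240 in CD4_control, 5.69-fold lower (2.74 to 14.2) by the library total, and within 2-fold under the other scalings, at -0.75 against the median entry and -0.35 against the total of the other miRNAs on the log2 scale. miR-181d was not listed in CD4_Drosha and stood at 1290 in CD4_control, at least 2.45-fold lower by the library total, a bound that sets no direction under the other scalings. miR-181b stood at 1053 in CD4_Drosha and 310 in CD4_control, 3.40-fold higher (1.35 to 7.55); being under 526 in control, it could be listed in CD4_Drosha only if it was higher there.

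These members come from separate loci. miR-181a and miR-181b are made from paired hairpins at chr1:137966455-137966718 and again on chromosome 2, and miR-181c and miR-181d from a pair of neighbouring genes on chromosome 8. The ratio of miR-181a to miR-181c was 23.4 in CD4_Drosha (11.1 to 59.2) and 0.597 in CD4_control (0.518 to 0.688). That of miR-181a to miR-181b was 20.5 in CD4_Drosha (10.2 to 48.3) and 10.1 in CD4_control (6.97 to 15.1). The intervals of the neighbouring pair overlap, and those of miR-181a and miR-181c do not: miR-181a was the more abundant in CD4_Drosha, and miR-181c in CD4_control. miR-181a is the main miRNA of the family in immature thymocytes, where it tunes T cell receptor signalling. It was also high in Drosha-deficient regulatory T cells, 59531 against 13227 in their control, and in Drosha-deficient DN3 thymocytes, 163745 against 98891 in their control. In the fibroblasts it stood at 6253 in MEF_Drosha and 7844 in MEF_control. In CD4_Dicer, set against the same CD4 control, it stood at 10656.

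Below the set, 183 entries stood under 526 in control and 22 of them were listed in CD4_Drosha. Apart from 12 fragments and 3 mirtrons these were miR-10a, miR-128, miR-150, miR-181b, miR-532-5p, miR-706 and miR-1187, named after their values were seen. miR-128 stood at 1316 in CD4_Drosha and 480 in CD4_control, and miR-150, a miRNA of mature resting lymphocytes, at 789 in CD4_Drosha and 450 in CD4_control. The 5 entries listed in CD4_Drosha alone, miR-1940, miR-703, miR-685, miR-466f-3p and miR-1982*, ran from 526 to 1053.

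Both arms of a hairpin could be followed in few cases. The ratio of miR-423-5p to miR-423-3p was 3.68 in CD4_Drosha (2.28 to 6.20) and 2.25 in CD4_control (2.17 to 2.33). That of miR-142-3p to miR-142-5p was 5.47 in CD4_Drosha (3.24 to 9.79) and 10.1 in CD4_control (9.18 to 11.04). That of miR-342-3p to miR-342-5p was 3.75 in CD4_Drosha (1.68 to 9.47) and 2.78 in CD4_control (2.54 to 3.04). The miR-342 intervals overlap, and the miR-423 and miR-142 ones overlap at their edges. For miR-21 the passenger arm set the libraries apart. miR-21 stood at 2632 in CD4_Drosha and 8860 in CD4_control, 3.37-fold lower (2.17 to 5.54) by the library total and 0.41 above the total of the other miRNAs on the log2 scale. miR-21* was not listed in CD4_Drosha and stood at 7350 in CD4_control, at least 13.97-fold lower. miR-21 thus exceeded miR-21* at least 5.004-fold in CD4_Drosha and 1.21-fold in CD4_control.

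Embryonic fibroblasts share no library with this comparison. They came from embryos, and the CD4+ T cells from mice 6 to 7 weeks old, so cell type and age differ together. Of the 90 entries, 86 were listed in both MEF_Drosha and MEF_control. The 8 entries higher in CD4_Drosha were higher by at least 2-fold in MEF_Drosha in 7 cases (10.5% of the 86 were), all but miR-181a. Of the 57 lower in CD4_Drosha 25 were lower in MEF_Drosha by at least 2-fold (40.7% of the 86 were), 30 lay within 2-fold and 2, miR-146a and miR-155, were higher. The share among the CD4-low entries was thus near that of the whole set. miR-320 stood at 193941 in MEF_Drosha and 11782 in MEF_control, and miR-7a at 39 in MEF_Drosha and 2793 in MEF_control.

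miRNAs of T lymphocytes were present in both CD4 libraries. Their 15 entries summed to 51974 in CD4_Drosha and 114350 in CD4_control, with 11 listed in CD4_Drosha and 15 in CD4_control. Of the 10 in the set 9 were at least 2-fold lower in CD4_Drosha by the library total and miR-181a higher, beside 65.6% lower and 8.89% higher of all 90. Counted by sign alone, of the 9 listed in both 8 were lower and 1 higher by the library total, 5 lower and 4 higher against the median entry, and 4 lower and 5 higher against the total of the other miRNAs. The immune-response miRNAs miR-155 and miR-146a stood at 1711 and 5658 in CD4_Drosha and at 4260 and 14220 in CD4_control, 2.49-fold (1.44 to 4.72) and 2.51-fold (1.86 to 3.49) lower by the library total and, on the log2 scale, 0.84 and 0.83 above the total of the other miRNAs. Of the activated T cell list, which shares miR-155 with it, 4 entries were listed in CD4_Drosha and 10 in CD4_control. Over all 278 entries these counts were 85 and 273. The activated T cell entries summed to 7895 in CD4_Drosha and 59150 in CD4_control, of which miR-210 held 2763 and 36220. Counted by sign alone, all 4 listed in both lay lower by the library total. Against the median entry, and also against the total of the other miRNAs, 1 lay lower and 3 higher. Markers of other cells were low in CD4_control or not listed. miR-223 (myeloid), miR-122 (liver) and miR-1, miR-133 and miR-206 (muscle) were listed in neither library, and no erythroid, endothelial, epithelial, neuronal or imprinted Dlk1-Dio3 miRNA was listed in CD4_Drosha, against sums of 50, 70, 490, 60 and 650 in CD4_control. Each entry in these sums stood under 526 in CD4_control. At an unchanged value it would also be missing from CD4_Drosha, so its absence there says nothing. Of the mesenchymal markers miR-10a was listed at 921 in CD4_Drosha, and all 4 listed in CD4_control summed to 140. In this series miR-10a was not particular to mesenchymal cells. It stood at 1684 in regulatory T cells without Drosha and 2214 in their control, beside 2003 in MEF_Drosha and 1313 in MEF_control. The part of these markers in the results was not tested. miR-451, the erythroid marker, and miR-145 and miR-199, mesenchymal ones, were listed in neither. In bulk RNA, fewer molecules per cell and fewer cells that make a miRNA cannot be told apart. Because every value is relative to its library, a loss of all miRNAs together cannot be seen.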

How the data were processed

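Per the labels' protocols, gel-cut RNA of 19 to 30 nt was ligated only where it carried a 5′ phosphate and 3′ hydroxyl, and clipped reads were placed on miRNA loci. The sources used here name no aligner, miRBase release or build. Deposited values are taken as scores, that is, mapping counts normalised by the authors, per the file headers, and rounded to whole numbers. Reads per library were estimated from the steps between values (tolerance 0.6), and the step of 10 in CD4_control may also come from rounding. From the deposited scores, log2 ratios were computed without a pseudocount (Python 3.11.15, scipy 1.17.1). Intervals are Clopper-Pearson, conditional on the sum for ratios. The call rule was also run on simulated counts with no shift of library makeup built in. That run cannot bear on the choice of scaling, which changes the counts of calls. Names without an arm were matched to RefSeq arms through the sequences deposited for DN3 and regulatory T cells, whose values are sums over guide or passenger sequences.

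Each group is 1 library, so there was no test. Named entries are those of the fragment, short hairpin and mirtron lists, the 10 highest of each library, the 10 lowest and 10 highest ratios in the set, and the 10 highest control entries not listed in CD4_Drosha; family members are given beside the family counts. Members, lists and thresholds were chosen with earlier results of these data known. Genic small RNA positions were not used.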

Additional observations from a re-analysis of the deposited data

Results flagged for a closer look

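By the library total, miR-146a and miR-155 went opposite ways in the 2 cell types that share a list format, by at least 2-fold in each. The log2 ratio of miR-146a, Drosha-deficient over control, was -1.33 in CD4+ T cells and 2.99 in fibroblasts, where it stood at 1395 in MEF_Drosha and 175 in MEF_control. That of miR-155 was -1.32 in CD4+ T cells and 1.24 in fibroblasts. There miR-155 stood at 78 in MEF_Drosha and 33 in MEF_control, low values beside floors of 13 and 11. With 1 library per group these differences were not tested. The fibroblasts came from embryos and the CD4+ T cells did not, so cell type and age differ together. Measured against the median entry, miR-146a and miR-155 lay at 0.43 and 0.44 in CD4+ T cells, and against the total of the other miRNAs at 0.83 and 0.84. By these scalings both were higher in CD4_Drosha, the same direction as in fibroblasts by the library total. The fibroblast ratios were not rescaled.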

How the results depend on the processing

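The scaling changed the counts and the median of the set with unlisted entries at the floor. By the library total there were 59 lower and 8 higher, with a median log2 ratio of -1.42. Scaled to the median miRNA, 16 entries were at least 2-fold lower and 12 higher, and the median was 0.34. Scaled to the total of the other miRNAs, the counts were 12 and 17 and the median 0.74. With 32 entries at the floor these medians are upper bounds, so the sign of the 2 scaled ones is not set. Some of the added higher entries were low in control and, because of the floor, could be listed only if higher by these scalings. Under these 2 scalings miR-22 turned to 0.46 and 0.87, miR-191 to 0.18 and 0.58 and miR-805 to 0.31 and 0.72, and miR-142-3p turned to 0.10 under the second. The values near 0 among these set no secure direction, since both scalings leave out what CD4_Drosha does not list. A 4-fold threshold left 30 lower. The count of higher entries was 5 with a control minimum of 4 times the floor and 28 with no minimum. The median was -1.30 with a pseudocount of 100, -2.26 with the higher minimum, -1.21 with none and -1.81 with unlisted entries at 0.5 of the floor; the cause of these moves was not tested. Without miR-689 the fragments took 22.2% in CD4_Drosha and 1.91% in CD4_control, the short hairpins and mirtrons 41.5% in CD4_Drosha, and the other miRNAs 36.3% in CD4_Drosha and 94.7% in CD4_control. Other alternatives stayed within 1.5 times the counts, within 0.1 of the median or within the intervals of the shares. Of the 41 named entries listed in both, a pseudocount of 100 reversed none.

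Depth limits CD4_Drosha: a miRNA under 4 reads is not listed, and 14 entries could not be placed. No paired analysis was possible because each group is 1 library, and no replicate was left out for the same reason.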
